A study of Mus musculus with 8 samples.

Results

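Voltage-gated calcium and sodium channel genes were described in mouse retinas with oxygen-induced retinopathy. The 40 genes were taken from the 57010 listed genes by symbol alone: 26 encode subunits of calcium channels (Cacna1, Cacna2d, Cacnb and Cacng) and 14 encode subunits of sodium channels (Scn, ending in a for the pore and in b for the auxiliary subunit). The strain of all 8 libraries was C57BL/6J and the age 17 days. In this model pups are kept in high oxygen and then returned to room air, so that retinal vessels are lost and regrow abnormally. The 4 control libraries had received a control scAAV (a self-complementary form of adeno-associated virus), and the 4 knockdown libraries an scAAV directed at the long noncoding RNA MM2P. Both groups therefore carried a virus and the retinopathy, and neither an untreated nor a room-air retina was among the samples. The treatment label of the knockdown group reads as a knockout, while the design text speaks of a knockdown. Not given in the sources used here were the promoter, serotype and target cells of the virus, and whether each library was a separate animal. The p-values therefore measure the spread between these libraries, and how much of it is technical is not known. The libraries did not all share one sex: Xist, of female cells, ranged from 0.103 to 398 TPM and Ddx3y, on the Y chromosome, from 0 to 48.3 TPM, and 4 libraries, 2 in each group, held over 20 TPM of both. With Ddx3y as a covariate 1 channel gene, Scn4b, in place of 2 was at an unadjusted p under 0.05, where 4.04% of all tested genes were, and none was called.

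A voltage-gated calcium channel is built from a pore-forming α1 subunit, which senses voltage and sets the channel type, with an intracellular β subunit and an extracellular α2δ subunit that bring it to the membrane and adjust its gating. In the retina, L-type channels at the ribbon synapses of photoreceptors and bipolar cells admit the calcium that drives sustained glutamate release, whereas P/Q- and N-type channels serve conventional synapses and T-type channels open near rest. Voltage-gated sodium channels carry the spikes of ganglion cells and of some amacrine and bipolar cells, and their β subunits tune gating and adhesion.

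The libraries held between 16.03 and 21.4 M estimated counts (M, 1000000 counts), 20.8 ± 0.446 M in the controls and 18.5 ± 1.78 M in the knockdown group (SD, n = 4 each). Every control library was deeper than every knockdown library, and the exact two-sided permutation p was 0.0286, the smallest that 70 assignments allow. Retinal RNA was abundant in both groups: Rlbp1, a retinoid-binding protein of Müller glia, had 508 ± 24.3 TPM among the controls and 508 ± 23.2 TPM in the knockdown group (SD, n = 4 each; TPM, transcripts per 1000000, are counts per gene length). The targeted RNA, listed as Mm2pr, had between 0 and 20.61 counts in any library, with overlapping groups, so it did not check the labels. Lens markers moved with the group: 7 of 13 tested lens genes rose by edgeR (10 by DESeq2, 0 by limma). The whole list of 15 lens genes summed to 9.02 to 15.1 TPM in the controls and 50.6 to 531 TPM in the knockdown libraries. Of 8 endothelial markers 7 had negative values, with a median log2 fold change of -0.21, and 5 were lower at an unadjusted p under 0.05. Of 8 tested smooth muscle and pericyte markers 6 were negative and 3 were lower at that level. By edgeR, DESeq2 and limma 0 genes of both lists were called. Of all tested genes 48.2% were negative, 2.66% were lower at an unadjusted p under 0.05 and 0.062% were called by edgeR. Other lists were also uneven in sign. Of 10 rod markers 9 were negative and 1 was lower at that level, of 10 amacrine markers 9 and 2, and of 7 tested pigment epithelium markers 5 and 2. All 10 bipolar markers were positive. The part of these tissues in the channel values was not tested.

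The channel genes together took 0.211% to 0.255% of each library's counts. Of the 40, 36 reached 1 TPM in at least 4 of the 8 libraries and were tested among 16118 genes. The 4 others were below that level, and 3 of them were at or near the detection limit. Cacng6, a γ subunit of muscle, had 0 counts in every library, which allows up to 3 counts, or 0.140 to 0.187 counts per 1000000 of a library. Cacng1, the γ subunit of the skeletal muscle L-type channel, had between 0 and 6 counts. Scn10a, a sodium channel of sensory neurons, had 1 count, in knockdown library 2. Scn11a, another sodium channel of sensory neurons, was detected in every library at 12 to 21 counts, or 0.266 to 0.459 TPM, and its control and knockdown means were 0.834 ± 0.145 and 0.817 ± 0.180 CPM (SD, n = 4 each; CPM, counts per 1000000 after TMM scaling). With no expression filter, knockdown over control was -0.04 ± 0.38 for Scn11a on the log2 scale (SE; adjusted p = 0.990 by edgeR).

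None of the channel genes passed the test between knockdown and control libraries. In edgeR's quasi-likelihood test with Benjamini-Hochberg adjustment over all tested genes, 0 of 36 had an adjusted p under 0.05, against 0.062% of all tested genes (10 of 16118), and the smallest adjusted p was 0.823. At an unadjusted p under 0.05 there were 2, Scn4b and Cacng3, both lower in the knockdown group, against 5.27% of all tested genes in either direction and 2.66% in that direction. DESeq2 also called 0, with 2 at that unadjusted level (0.279% and 4.71% of all tested genes). Limma called 0, with 1 at that level, a γ gene (0.0% and 4.99%). The log2 fold change of knockdown over control was negative for 22 and positive for 14, with a median of -0.01, and 48.2% of all tested genes had a negative value. The values ranged from -0.42 for Scn4b to 0.20 for Cacna1s. In 2 of 36, Scn4b and Cacng3, every knockdown library lay below every control library, against 3.31% of all tested genes with groups that did not overlap in either direction and 1.71% in that direction. The share at an unadjusted p under 0.05 is near the background, and the share without overlap rests on 2 genes. The 95% intervals bound what the data could have held: they lay inside a 1.25-fold change either way for 28 of 36 genes, inside 1.5-fold for 34 (all but Cacng8 and Scn4b) and inside 2-fold for all 36. In whole retina, fewer cells of a type and less RNA per cell cannot be told apart.

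**Figure D1:**
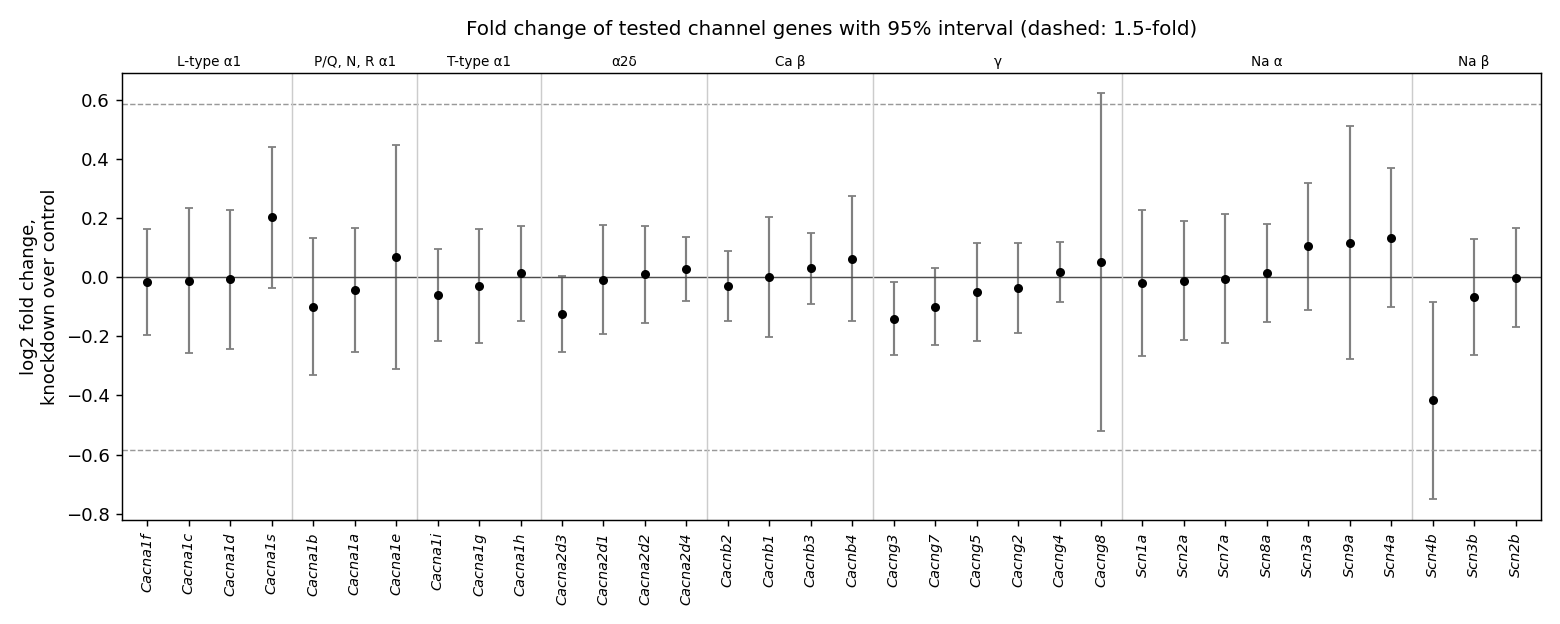
The log2 fold change of knockdown over control (vertical axis) is drawn for 34 of the 36 tested channel genes, ordered by family, with its 95% interval from edgeR; the dashed lines mark a 1.5-fold change. Only the intervals of Scn4b and Cacng3 exclude 0, and those of Scn4b and Cacng8 extend past 1.5-fold.

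The L-type pore genes were led by Cacna1f, the channel of photoreceptor terminals whose loss causes congenital stationary night blindness. Its level was 105.8, 117, 93.9 and 83.7 TPM in control libraries 1 to 4 and 83.7, 96.7, 104.6 and 111.6 TPM in knockdown libraries 1 to 4. Both groups spanned nearly the same range, and the lowest values were those of control 4 and knockdown 1. Cacna1f made up 78.5% ± 0.0976 of the summed TPM of the 4 L-type genes in the controls and 78.1% ± 0.434 in the knockdown group (SD, n = 4 each), and the log2 fold change was -0.02 ± 0.08 (SE; adjusted p = 0.998 by edgeR). Cacna1d, an L-type channel of many neurons, followed at a mean of 17.8 TPM over the 8 libraries. Cacna1c, the L-type channel of heart, vessel wall and neurons, had 5.97 TPM and Cacna1s, the voltage sensor of skeletal muscle, 3.82 TPM. The ranges of Cacna1f, Cacna1d and Cacna1c were separate from one another, while those of Cacna1c and Cacna1s overlapped.

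Cacna1s had the largest positive fold change of the 36 tested genes. It measured 9.15, 9.66, 8.49 and 8.63 CPM in the controls and 12.2, 9.22, 9.98 and 9.97 CPM in the knockdown libraries. Knockdown 1 was the highest and knockdown 2 lay among the controls. On the log2 scale knockdown over control was 0.20 ± 0.11 (SE; adjusted p = 0.951 by edgeR). Skeletal muscle RNA was looked at beside it: the 14 muscle markers summed to 7.60 to 18.4 TPM in the controls and up to 89.8 TPM in knockdown 4, where Tnnt3, a fast troponin, reached 15.4 TPM and was at 0 in 6 of the other libraries. In knockdown 4 Cacna1s stood at 3.99 TPM, within the 3.29 to 4.61 TPM range of all libraries. The part of muscle RNA in the Cacna1s values was not tested. Of the exonic bases of Cacna1s, 1309 of 6550 (20.0%) are shared with the antisense gene Gm37759, listed at 0.990 to 1.95 TPM, and whether the counting used strand is not given, so the level of Cacna1s is uncertain.

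The P/Q- and N-type pore genes stood at like levels. Cacna1a, the P/Q-type channel of conventional nerve terminals, had 15.3, 15.5, 14.0 and 12.03 TPM in the controls and 10.4, 14.6, 14.9 and 15.5 TPM in the knockdown libraries, with knockdown 1 the lowest of all 8. Knockdown over control was -0.04 ± 0.10 on the log2 scale (SE; adjusted p = 0.997 by edgeR). Cacna1b, the N-type channel, had 36.7, 44.4, 33.4 and 34.95 CPM in the controls and 27.7, 36.0, 36.8 and 38.9 CPM in the knockdown libraries. Knockdown 1 was again the lowest, the groups overlapped, and the log2 fold change was -0.10 ± 0.11 (SE; adjusted p = 0.989 by edgeR). The mean levels of Cacna1a and Cacna1b, 14.03 and 12.8 TPM, did not separate, and Cacna1a was the higher in 7 of 8 libraries. Cacna1e, the R-type channel, was lower than both at 2.99 TPM.

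Of the low-voltage-activated T-type genes, Cacna1h had the highest level, 24.04 TPM. Its libraries measured 24.5, 28.7, 20.9 and 21.6 TPM in the controls and 22.4, 25.1, 24.3 and 24.8 TPM in the knockdown group, which lay inside the control range. Knockdown over control was 0.01 ± 0.07 on the log2 scale (SE; adjusted p = 0.998 by edgeR). Cacna1g, the T-type channel known for thalamic burst firing, had 20.3 TPM, and its range overlapped that of Cacna1h although Cacna1h was the higher in 8 of 8 libraries. Cacna1i, the slower T-type channel, had 10.7 TPM, separate from both. Over the pore families the median log2 fold change was -0.01 for the 4 L-type, -0.04 for the 3 P/Q-, N- and R-type and -0.03 for the 3 T-type genes.

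Among the α2δ subunits Cacna2d4, the photoreceptor form that works with the Cacna1f channel, had the highest mean TPM of all 40 genes. That rank rests on the listed gene lengths. It measured 167.9, 172.5, 160.9 and 151.1 TPM in the controls and 152.0, 166.6, 167.8 and 180.2 TPM in the knockdown libraries. The groups overlapped along most of their length, and the log2 fold change was 0.03 ± 0.05 with a 95% interval of -0.08 to 0.14 (SE; adjusted p = 0.997 by edgeR). Cacna2d4 took 57.7% ± 0.705 of the summed α2δ TPM in the controls and 58.7% ± 1.51 in the knockdown group (SD, n = 4 each). Cacna2d1 and Cacna2d2, the α2δ forms that bind gabapentin, followed at 56.3 and 34.9 TPM, and Cacna2d3, a neuronal form, at 27.4 TPM.

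Cacna2d3 had the third smallest p of the set. It measured 42.3, 44.7, 39.5 and 44.5 CPM in the controls and 39.04, 39.2, 38.2 and 40.5 CPM in the knockdown libraries. Of the 4 knockdown values only that of library 4 lay above the lowest control, library 3. This gave a log2 fold change of -0.12 ± 0.06 with a 95% interval of -0.25 to 0.00 (SE; adjusted p = 0.930 by edgeR).

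The calcium channel β subunits, which hold the pore at the membrane, were led by Cacnb2, the β subunit of the photoreceptor terminal. Its level was 146.0, 151.4, 144.6 and 130.3 TPM in the controls and 125.4, 135.8, 146.7 and 154.7 TPM in the knockdown libraries. Knockdown 1 was the lowest and knockdown 4 the highest of the 8, and the log2 fold change was -0.03 ± 0.06 (SE; adjusted p = 0.997 by edgeR). Cacnb3, Cacnb1 and Cacnb4 had 48.9, 20.2 and 16.0 TPM, the ranges of Cacnb1 and Cacnb4 overlapping. The log2 fold changes of the 4 genes ran from -0.03 to 0.06. Cacnb4 shares 16.0% of its exonic bases with A430018G15Rik on the opposite strand.

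The γ genes named for calcium channels include several whose products are better known as auxiliary subunits of AMPA-type glutamate receptors (Cacng2, Cacng3, Cacng4, Cacng5, Cacng7 and Cacng8). Cacng7 was the highest at 122.3, 123.8, 116.8 and 105.4 TPM in the controls and 108.4, 116.5, 99.6 and 112.3 TPM in the knockdown libraries. The groups overlapped, with knockdown 3 the lowest. On the scaled counts, 108.3, 107.7, 105.2 and 97.95 CPM against 101.2, 103.8, 86.7 and 98.98 CPM, the log2 fold change was -0.10 ± 0.06 (SE; adjusted p = 0.967 by edgeR). Cacng4 followed at 76.1 TPM, Cacng3 at 37.3 TPM, Cacng5 at 35.2 TPM, Cacng2 (stargazin) at 13.3 TPM and Cacng8 at 2.83 TPM.

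Cacng3 (ENSMUSG00000066189, chr7:122670492-122769393), known from forebrain neurons, was lower in every knockdown library. It measured 43.5, 44.2, 42.5 and 45.6 CPM in the controls and 38.7, 41.05, 38.1 and 41.5 CPM in the knockdown libraries. The gap between the lowest control and the highest knockdown library was small, 42.5 against 41.5 CPM. The mean was 43.95 ± 1.31 CPM against 39.8 ± 1.70 CPM (SD, n = 4 each), a log2 fold change of -0.14 ± 0.06 with a 95% interval of -0.26 to -0.02 (SE; adjusted p = 0.899 by edgeR), so it did not pass the test. Over the alternatives the value ran from -0.16 to -0.12 and the adjusted p from 0.474 to 1.0.

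**Figure D2:**
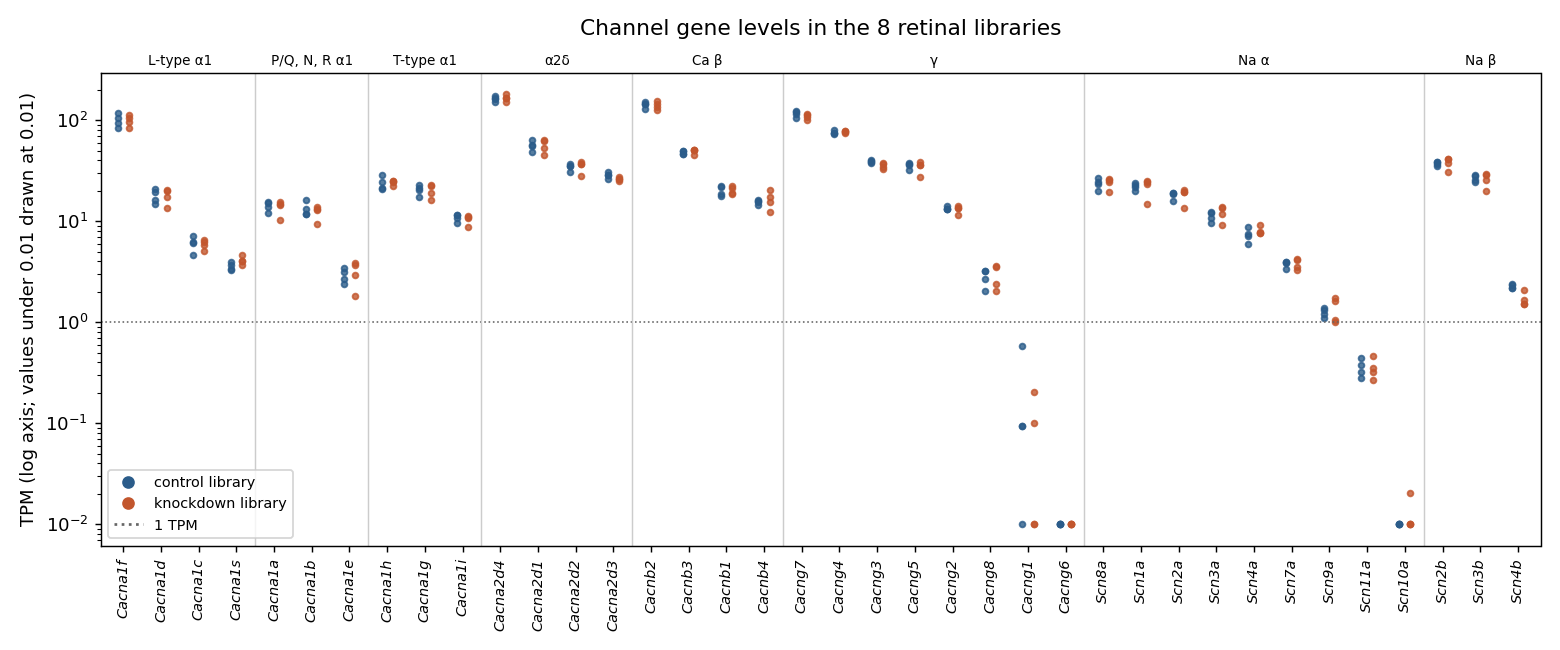
The level of 38 of the 40 channel genes (vertical axis, TPM on a log axis, values under 0.01 drawn at 0.01) is plotted for the 8 libraries, by family and group. With the listed gene lengths, Cacna2d4, Cacnb2, Cacng7 and Cacna1f stand highest, between 83.7 and 180.2 TPM in any library. The control and knockdown points overlie each other for nearly every gene.

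The brain-type sodium channel pores Scn8a, Scn1a, Scn2a and Scn3a held most of the sodium channel α signal. Scn8a, the main channel of mature axon initial segments and nodes, had 24.2, 26.9, 23.5 and 20.1 TPM in the controls and 19.7, 24.8, 25.5 and 26.03 TPM in the knockdown libraries. The ranges were nearly the same, and the log2 fold change was 0.02 ± 0.08 (SE; adjusted p = 0.998 by edgeR). Scn1a (22.0 TPM), known for inhibitory neurons, and Scn2a (18.2 TPM), known for immature and unmyelinated axons, followed. The order Scn8a, Scn1a, Scn2a, Scn3a held in 8 of 8 libraries for each neighbouring pair although the ranges of neighbours overlapped.

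Scn3a, the sodium channel best known from developing neurons, had 42.6, 40.9, 37.2 and 34.6 CPM in the controls and 33.4, 40.7, 45.6 and 47.1 CPM in the knockdown libraries. Knockdown 1 was the lowest and knockdown 4 the highest of the 8. Knockdown over control was 0.10 ± 0.10 on the log2 scale (SE; adjusted p = 0.989 by edgeR), and 0.20 without knockdown 1 (adjusted p = 0.574).

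Scn4a, the sodium channel of skeletal muscle, had 15.9, 22.7, 20.2 and 19.9 CPM in the controls and 21.1, 24.5, 19.9 and 20.7 CPM in the knockdown libraries. Control 1 was the lowest and the other libraries overlapped, with a log2 fold change of 0.13 ± 0.11 (SE; adjusted p = 0.989 by edgeR). Knockdown 4, the library with the most muscle marker RNA, held 7.88 TPM of Scn4a, inside the 6.00 to 9.24 TPM range of all libraries. The part of muscle RNA in the Scn4a values was not tested. Scn7a, a sodium-sensing relative that is not gated by voltage in the usual way, had 3.79 TPM, and Scn9a, of peripheral neurons, 1.30 TPM. Their log2 fold changes were -0.01 and 0.12.

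All 4 sodium channel β genes had negative values, and 1 was lower at an unadjusted p under 0.05 by edgeR. Of all tested genes 48.2% were negative and 2.66% were lower at that level. Scn2b (37.7 TPM) and Scn3b (26.3 TPM) had log2 fold changes of -0.002 ± 0.08 and -0.07 ± 0.09 (SE), so the sign of Scn2b carries no weight.

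Scn4b (ENSMUSG00000046480, chr9:45138395-45154152), the β subunit linked to resurgent sodium current, had the smallest p and the largest fold change of the set, on few counts. It had 88, 98, 93 and 99 counts in control libraries 1 to 4 and 59, 64, 48 and 84 counts in knockdown libraries 1 to 4. After scaling these were 4.31, 4.71, 4.39 and 4.88 CPM against 3.17, 3.33, 2.98 and 4.17 CPM. Every knockdown library was below every control library, with knockdown 4 close to control 1. The mean was 4.57 ± 0.270 CPM against 3.41 ± 0.523 CPM (SD, n = 4 each), a log2 fold change of -0.42 ± 0.16 with a 95% interval of -0.75 to -0.08 (SE; adjusted p = 0.823 by edgeR). It did not pass the test, and over the alternatives the value ran from -0.53 to -0.28 and the adjusted p from 0.471 to 1.0. By limma on log2(TPM + 1), 0 of the sodium β genes, Scn4b included, were at an unadjusted p under 0.05. Scn4b made up 1.90% ± 0.0552 of the summed sodium β TPM in the controls and 1.46% ± 0.133 in the knockdown group (SD, n = 4 each).

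**Figure D3:**
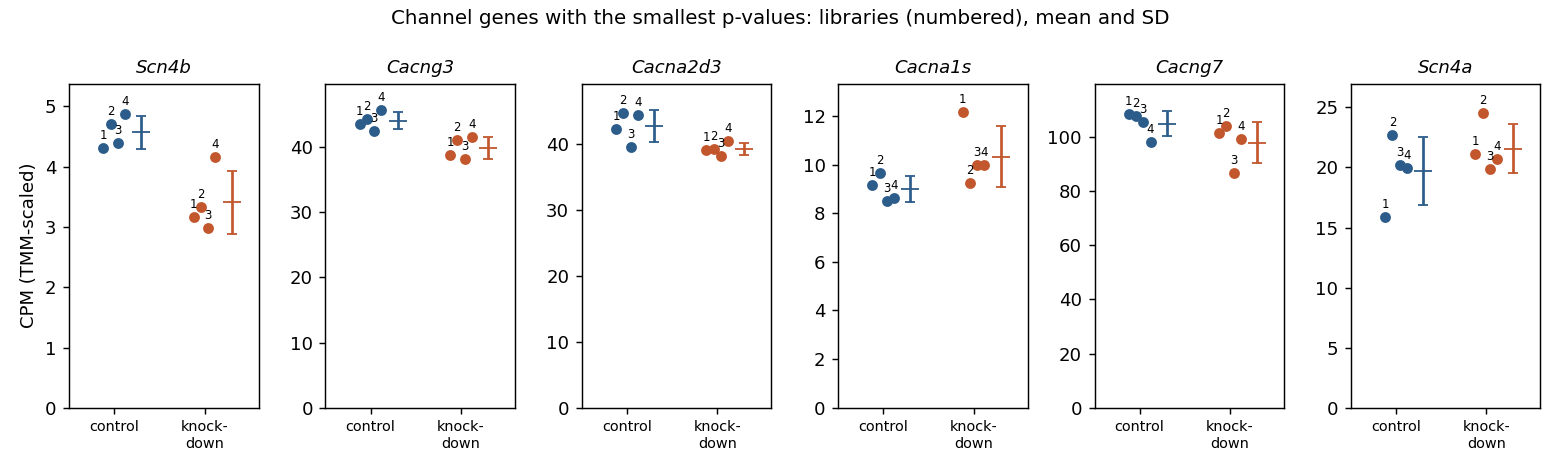
Each panel plots the scaled counts (CPM, vertical axis from 0) of 1 of the 6 channel genes with the smallest p-values, with the 4 control and 4 knockdown libraries numbered and the mean and SD beside them. The groups are separate only for Scn4b (lowest control 4.31 CPM, highest knockdown 4.17 CPM) and Cacng3 (42.5 and 41.5 CPM).

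Summed over families, the levels of the groups lay within the spread of the libraries. The L-type genes summed to 127 ± 18.5 TPM in the controls and 127 ± 15.3 TPM in the knockdown group, the α2δ genes to 283 ± 18.8 and 284 ± 24.9 TPM, the sodium α genes to 89.7 ± 7.65 and 91.5 ± 14.0 TPM and all 40 genes to 1216 ± 79.6 and 1201 ± 100.5 TPM (SD, n = 4 each). These sums are descriptions without a test. TPM rests on the gene lengths in the table. With the exonic bases of GENCODE M21 in their place, the leading gene was the same in 8 of 8 families. The whole order was the same in 5, with Cacna1c and Cacna1s, Cacna2d1 and Cacna2d2, and Cacnb1 and Cacnb4 changing places. The order across families was not compared in this way and rests on the listed lengths. Cacna2d4 has 9478 exonic against 5803 listed bases, and Cacng7 2441 against 2212.

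Genes that work with the channels were listed apart from the 40. Of 57 partner genes, at the photoreceptor ribbon synapse, among calcium channel regulators, or among sodium channel regulators and axon initial segment proteins, 55 were tested and 0 were called by edgeR, DESeq2 or limma. At an unadjusted p under 0.05 there were 4 by edgeR, 4 by DESeq2 and 2 by limma, against 5.27%, 4.71% and 4.99% of all tested genes. The log2 fold change was negative for 35 and positive for 20, with a median of -0.04, where 48.2% of all tested genes were negative. The 4 were all lower in the knockdown group, and the 3 given here were chosen by name after their values were seen. Cabp4, the calcium-binding protein that shifts gating of the photoreceptor channel, stood at 341 ± 19.2 TPM in the controls and 315 ± 11.4 TPM in the knockdown group (SD, n = 4 each; adjusted p = 0.908 by edgeR), and its relative Cabp1 at 93.0 ± 9.86 and 81.1 ± 10.5 TPM (0.903). Fgf12, an intracellular partner of sodium channels, stood at 63.4 ± 3.87 and 57.5 ± 5.51 TPM (0.911). Cabp4 was also the most abundant partner of its list. The other most abundant partners had unadjusted p-values above 0.05 by edgeR. Lrit1, a photoreceptor synapse protein, had 294 ± 8.50 and 290 ± 5.84 TPM, and the membrane fusion proteins Stx3 and Snap25 had 2328 ± 39.4 and 2336 ± 39.4 TPM, and 1258 ± 69.7 and 1211 ± 34.2 TPM. Clta, a clathrin light chain, had 308 ± 12.3 and 305 ± 10.1 TPM, and Sptbn1, a β spectrin, 189 ± 7.44 and 186 ± 17.0 TPM.

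Across libraries the channel genes moved together more than between the groups. Knockdown 1 held the lowest of the 8 values for 20 of 36 channel genes (55.6%), against 18.5% of all tested genes. It lay below the mean of the libraries for 31 of 36, against 48.8% of all tested genes. The median deviation of the channel genes from the mean of the 8 libraries was -0.19 in knockdown 1 and -0.07 in control 4 on the log2 scale, and between 0.01 and 0.10 in the other 6. In knockdown 1 it was -0.36 for the P/Q-, N- and R-type genes, -0.25 for the sodium β genes, -0.23 for the sodium α genes and -0.09 for the calcium β genes.

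Gene length moved with this pattern. The tested channel genes are long, with a median of 6165 bases in the table against 2720 for all tested genes, and 19 of 36 reach 6000 bases against 10.1% of all tested genes. The slope of a gene's deviation on its length, over all tested genes, was -0.0659 per doubling in knockdown 1 and -0.0376 in control 4 on the log2 scale, and 0.000638 to 0.0291 in the other 6. In knockdown 1 the median deviation was -0.25 for the channel genes of 6000 bases or more and -0.11 for the shorter ones, against -0.11 for all tested genes of 6000 bases or more and 0.02 for the shorter ones. Marker lists also moved there: 9 of 14 ganglion cell markers and 8 of 10 amacrine cell markers were lowest in knockdown 1, with median deviations of -0.21 and -0.23, while the 10 bipolar markers had 0.01. Other lists stood above the mean there, with median deviations of 0.11 for Müller glia, 0.14 for microglia and macrophages and 0.16 for the retinal pigment epithelium. Of these only Müller glia was highest in knockdown 1. The microglia list had 0.15 in control 4, and the pigment epithelium list 0.22 in control 3 and 0.22 in control 4. Gfap, a filament gene of astrocytes and reactive glia, stood at 121 TPM in knockdown 1 against 30.6 to 61.9 TPM elsewhere. The astrocyte list that holds it, with 3 tested genes, had a median deviation of only 0.01 in knockdown 1. Between the groups, 11 of the 14 ganglion cell markers had negative values, with a median log2 fold change of -0.12. By edgeR 5 were lower at an unadjusted p under 0.05, and 4 were at that level by DESeq2 and 4 by limma. By edgeR 1 was called, the glutamate transporter gene Slc17a6, at 70.5 ± 3.38 TPM in the controls and 52.0 ± 5.86 TPM in the knockdown group (SD, n = 4 each; adjusted p = 0.0465 by edgeR). Of all tested genes 48.2% were negative, 2.66% were lower at an unadjusted p under 0.05 and 0.062% were called by edgeR. Slc17a6 was lower in 20 of 20 alternatives and called in 9 of them, with adjusted p-values from 3.03e-06 to 0.232. Those without a call include limma, robust dispersion and the fits without control 1, 2 or 4 or without knockdown 3 or 4. The ganglion list summed to 1939 to 2054 TPM in the controls and 1587 to 1987 TPM in the knockdown libraries. The part of length and of these cell types in the channel values was not tested.

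**Figure D4:**
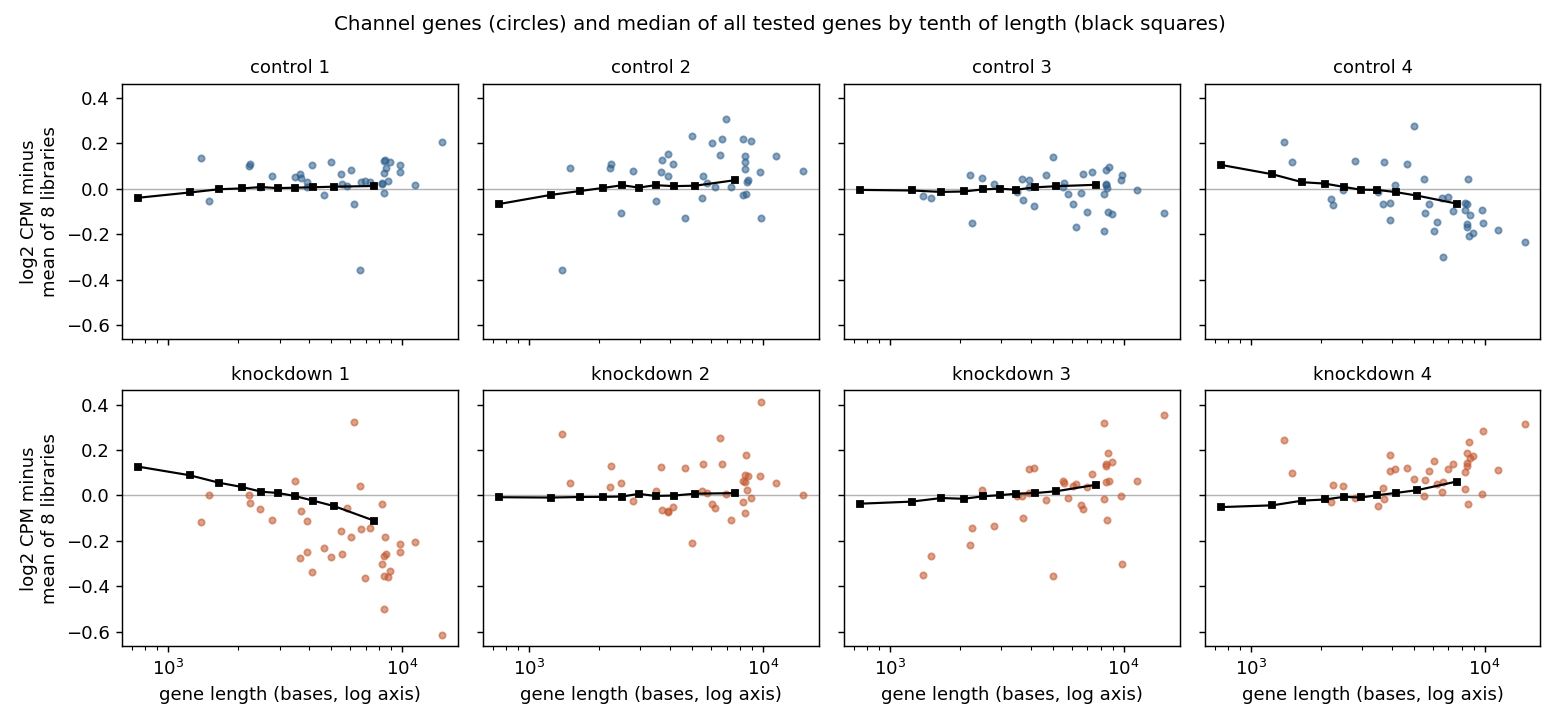
Each panel is 1 library and plots the log2 deviation of the 36 tested channel genes from the mean of the 8 libraries (vertical axis) against gene length in bases (log axis), with the median of all tested genes in 10 length classes of like size as black squares. In knockdown 1 and control 4 the black line falls with length (medians of -0.11 and -0.07 in the longest class), and most channel genes lie below 0.

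The direction of the small fold changes depended on knockdown 1, which was singled out for its low channel values. Leaving it out of the knockdown group raises most fold changes by construction, so the shift is no separate result. Without knockdown 1, 27 channel genes had positive and 9 negative values, with a median of 0.04, and 4 were at an unadjusted p under 0.05 (Scn3a, Cacnb4 and Scn1a higher, Scn4b lower) where 8.01% of all tested genes were. With the length slope of each library as a covariate, an alternative chosen after seeing the data, 24 were positive and 12 negative, with a median of 0.03, and 3 were at that level (Scn3a higher, Scn4b and Cacng3 lower) where 8.81% of all tested genes were. No channel gene was called in either fit, and the smallest adjusted p was 0.574 and 0.426.

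Many of the channel genes lie beside one another, and neighbours differed widely in level. All 40 were found in GENCODE M21 on GRCm38. Scn3a, Scn2a, Scn1a, Scn9a and Scn7a span chr2:65457118-66784914, with mean levels from 1.30 TPM (Scn9a) to 22.0 TPM (Scn1a). Cacng7, Cacng8 and Cacng6 span chr7:3332955-3435667 and stood at 113, 2.83 and 0 TPM. Cacng1, Cacng4 and Cacng5 span chr11:107703218-107915055 at 0.135, 76.1 and 35.2 TPM, and Scn2b and Scn4b span chr9:45117782-45154152 at 37.7 and 1.98 TPM.

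Promoters differed in base composition among the channel genes. The windows are the bases before a gene's RefSeq start on GRCm38.p6, 5′ to 3′ on the gene's own strand, which is the plus strand in all 4, with each CG in capitals. They were chosen after seeing the data to show the leading L-type gene and the leading γ gene of its chromosome 7 group beside a CG-dense and a CG-poor member window. The Cacna1f stretch is chrX:7606853-7607082, 230 bases that end where the GENCODE exon begins and before the RefSeq start, while the others are 250 bases that end at that start. The window of Cacna2d1 is chr5:15934441-15934690, that of Cacng7 chr7:3332575-3332824 and that of Scn2a, the more upstream of its windows, chr2:65620519-65620768.
Cacna1f: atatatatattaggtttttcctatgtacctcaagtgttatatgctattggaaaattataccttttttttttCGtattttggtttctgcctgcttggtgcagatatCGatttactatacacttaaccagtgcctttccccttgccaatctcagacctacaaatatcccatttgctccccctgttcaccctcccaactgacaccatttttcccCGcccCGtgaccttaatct
Cacna2d1: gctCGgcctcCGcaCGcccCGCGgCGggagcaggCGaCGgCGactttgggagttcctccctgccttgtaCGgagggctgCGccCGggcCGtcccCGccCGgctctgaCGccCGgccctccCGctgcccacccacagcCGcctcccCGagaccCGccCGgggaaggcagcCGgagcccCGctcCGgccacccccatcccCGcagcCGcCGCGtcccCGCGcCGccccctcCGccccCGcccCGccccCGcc
Cacng7: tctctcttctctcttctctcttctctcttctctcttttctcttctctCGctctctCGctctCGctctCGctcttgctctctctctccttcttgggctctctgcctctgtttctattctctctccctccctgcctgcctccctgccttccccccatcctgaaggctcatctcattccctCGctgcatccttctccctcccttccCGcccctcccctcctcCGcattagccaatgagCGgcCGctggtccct
Scn2a: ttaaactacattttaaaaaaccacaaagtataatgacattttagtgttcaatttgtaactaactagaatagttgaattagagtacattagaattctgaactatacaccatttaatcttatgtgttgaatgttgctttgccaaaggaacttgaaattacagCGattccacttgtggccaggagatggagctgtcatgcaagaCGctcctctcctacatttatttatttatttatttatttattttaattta
Cacna1f had 4 CG and Scn2a 2, while Cacng7 had 9 and Cacna2d1 36. Over the 250 bases of 32851 windows of all genes the median was 6, and 62.2%, 81.2%, 40.3% and 2.58% of them held at least as many CG as Cacna1f, Scn2a, Cacng7 and Cacna2d1. The 41 windows of the 30 channel genes with an entry had a median of 8. The letters TAATCC, the core bound by the photoreceptor factor CRX, were searched on both strands of the 250 bases before each start and were found in 3 of the 41 windows (Cacna1s, Cacng8 and Scn7a) and in 6.25% of all windows.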

How the data were processed

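RNA was measured in 8 retinal libraries, 4 per group. Per the labels' protocols, total RNA was isolated with TRIzol and the libraries were run on a NovaSeq X Plus with paired reads. The submitters' processing notes list Bowtie 0.12.2 and the mm9 build without saying what each was used for. The counting tool, its annotation and its use of strand were not given in the sources used here. The deposited table says TPM in its name, yet its values are estimated counts: libraries sum to 16.03 to 21.4 M, and 90.6% to 91.9% of entries are whole. The plan named edgeR for counts, and limma on log2(TPM + 1) in its place had the values been TPM. Since the values were counts, edgeR was used, and limma on log2(TPM + 1) became an alternative. Columns of the authors' group means were not used.

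TPM came from the estimated counts and the gene lengths listed beside them, and the counts were rounded to whole numbers for edgeR and DESeq2. A gene was tested if it reached 1 TPM in 4 or more of the 8 libraries, which 16118 of the 29694 genes with any count did. The test was edgeR 4.0.16 (R 4.3.3; TMM scaling, quasi-likelihood test, group as the only term), with an adjusted p under 0.05 as the threshold. The biological coefficient of variation common to all genes was 0.0959. DESeq2 1.42.0 and limma 3.58.1, other scalings and filters, a replicate block and leaving out each library were alternatives. The procedure was tested on simulated data. Floors of 3 counts and intervals on counts cover counting error only.

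The channel genes, partner lists and marker lists were chosen with earlier results of these data known. Values in every library were given for the members whose groups do not overlap, the 8 with the smallest p and the one with the highest mean TPM of each family. For partner lists the 2 most abundant genes were named. Other names were picked with their values in view. Some genes that these rules name are not reported here. Marker lists of 15 cell types were computed, and a selection is given, made with their values in view. Positions come from GENCODE M21 (GRCm38) and promoter windows from RefSeq (GRCm38.p6), and were not joined to mm9.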

Additional observations from a re-analysis of the deposited data

Results flagged for a closer look

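In 2 of 96 sets of 4 libraries, the gap of the lowest library to the nearest of the others, over the range of the group, was above the critical value of Dixon's test. Chance marks about 1 in 20 such sets. Both were in knockdown 1: Cacna1a at 36.7 CPM, where the other knockdown libraries held 49.15 to 51.6 CPM, and Scn1a at 51.8 CPM, where they held 78.5 to 83.9 CPM. Without that library the log2 fold change of Scn1a was 0.12 in place of -0.02 (edgeR adjusted p = 0.622 and 0.998), a rise that follows from leaving out the lowest value.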

How the results depend on the processing

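No channel gene and no partner gene was called in any of the 20 alternatives, and the smallest adjusted p of a channel gene was 0.426. Of 36 channel genes, 26 changed sign in at least 1 alternative and 10 did not, and 7 of 713 values moved by over 1 SE. The count of all genes called was 10 and moved to 157 with no expression filter, 45 with DESeq2, 1 with a mean of at least 5 TPM, and 0 with robust dispersion or with limma on log2(TPM + 1). Leaving out 1 library gave 0 to 58 called genes: 0 without control 1 or control 2, 1 without control 4 and 58 without control 3. The cause was not tested. The number of channel genes whose groups did not overlap was 2, where 3.31% of all tested genes did not overlap. It was 2 to 4 with 1 library left out, and 4 without knockdown 2. Fewer libraries are then compared, so groups separate more easily. The share over all tested genes was not computed there, so these counts are descriptions only.

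Replicate numbers did not pair the samples: libraries with the same number had correlations of 0.00910, -0.00258, -0.0384 and -0.112 of their deviations from the group means. With the replicate block 11 genes were called in all, and 0 channel genes.

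Scn4b, Cacng8 and Scn9a rest on few counts, and their intervals are wide. Of the 4 untested genes, Scn11a alone had counts in every library.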
